A study of Homo sapiens with 8 samples.

Results

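The folding machinery of the endoplasmic reticulum (ER) lumen was followed through 10 genes in SW480, a human colorectal adenocarcinoma cell line. They are HSPA5, HYOU1, SIL1, SDF2L1, HSP90B1, CALR, CANX, UGGT1, MANF and CRELD2, taken by their names from a table of 58735 genes. The 10 genes were chosen on their function and with their differences between the groups in these libraries already known, so the differences given for them are a description and were not tested as a finding. All 10 passed the filter on low counts, which left 15790 genes. SW480 cells stably overexpressing FLAG-tagged SPOCK1 were compared with SW480 cells carrying the vector, with 4 libraries in each group. SPOCK1 encodes testican-1, a secreted proteoglycan of the extracellular matrix, and the study was titled for its part in Wnt/β-catenin signalling and cancer stemness. The protocol, worded alike for all 8 libraries, had cells infected with lentivirus and selected with puromycin until a Western blot showed the overexpressed protein. Total RNA was taken in TRIzol, and every library carries the same batch label.

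Proteins that enter the secretory pathway fold in the ER lumen. HSPA5 (BiP), the Hsp70 of the ER, binds unfolded chains in an ATP-driven cycle that J-domain proteins start and exchange factors reset. Glycoproteins also pass through a lectin cycle in which calnexin and calreticulin hold the chain and UGGT1 sends unfolded chains back to them. When unfolded protein accumulates, the sensors IRE1, PERK and ATF6 set off the unfolded protein response, in which ATF6 and spliced XBP1 act with NF-Y on ER stress response elements in the promoters of chaperone genes.

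SPOCK1 itself had 6719, 7828, 9712 and 8964 counts in SPOCK1 libraries 1 to 4, against 6, 0, 3 and 6 counts in control libraries 1 to 4. Libraries held 35643585 to 42812951 counts. Of 10 markers of colorectal epithelium, 8 passed the filter and summed to 14500 to 16200 CPM in SPOCK1 libraries and 12900 to 15800 CPM in controls, while KRT20 and CDH17 had at most 7 counts and 1 count in any library. KRT8, KRT18 and KRT19 carry most of that sum. Of the 8, CDH1 (E-cadherin), named here after its values were seen, was lower, at 11.2 ± 1.21 CPM in SPOCK1 libraries and 17.8 ± 1.29 CPM in controls (SD, n = 4 each; adjusted p = 0.00537, edgeR), the other 7 were not called, and the part of this in the values below was not tested. CPM, the usual counts-per-million unit, are counts scaled to library size (TMM). Of 12 markers of leukocytes, endothelium and fibroblasts, CDH5, DCN and LUM had 0 counts in every library. VWF, COL1A1 and PDGFRB passed the filter, at 0.34 to 1.34 CPM, and were not called. GPA33, among the 8 epithelial markers that passed, was as low, at 0.254 to 0.941 CPM. The 12 together summed to 2.02 to 3.17 CPM in SPOCK1 libraries and 1.91 to 3.61 CPM in controls. Ribosomal RNA genes took 0.56% to 0.67% of counts in SPOCK1 libraries and 0.696% to 0.738% in controls, without overlap, and its part in the values below was not tested either. Whether the 4 libraries of each group are separate cultures or infections is not in the labels, so p-values measure only the spread between these libraries, and other differences between the selected populations cannot be told apart from SPOCK1.

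The promoters of the 10 genes were read from RefSeq (GRCh38.p14), in windows from 250 bases before to 50 bases after each start. HSPA5 is shown in full because its window holds the ER stress response element (ERSE), which is CCAAT, 9 bases and CCACG. These 250 bases lie upstream of its start and outside annotated exons, at chr9:125241344-125241593 on the minus strand. Capitals mark the CCAAT and CCACG of the element, 66 to 48 bases before the start.
HSPA5: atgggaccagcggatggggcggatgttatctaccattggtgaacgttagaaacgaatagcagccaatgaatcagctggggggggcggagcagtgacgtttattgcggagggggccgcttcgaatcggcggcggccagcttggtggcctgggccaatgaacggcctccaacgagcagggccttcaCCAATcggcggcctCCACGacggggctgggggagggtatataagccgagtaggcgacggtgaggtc

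An ERSE, or an ERSE-II (ATTGG, 1 base, CCACG), was found on either strand in windows of 7 of the 10 genes. Their sites are shown so that the elements can be read side by side. Each stretch of 30 bases runs along the strand of its gene, and capitals mark the element's fixed bases, which read CGTGG and ATTGG or CGTGG and CCAAT where the element lies on the opposite strand.
HYOU1 distal: cgctggccccgTGACGTGGtCCAATcccag
HYOU1 proximal: ggcctgggaCGTGGtCCAATgagtacgcgc
SDF2L1: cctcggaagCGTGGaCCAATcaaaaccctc
HSP90B1 distal: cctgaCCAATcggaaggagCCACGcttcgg
HSP90B1 proximal: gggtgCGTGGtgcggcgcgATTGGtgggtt
CALR: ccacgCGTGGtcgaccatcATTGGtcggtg
CANX: cccggCCAATcttcacactCCACGaagaat
CRELD2: cctctCGTGGcgaactcggATTGGgccata

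They lie at chr11:119057375-119057404 and chr11:119057264-119057293 for HYOU1, chr22:21642105-21642134 for SDF2L1, chr12:103930211-103930240 and chr12:103930316-103930345 for HSP90B1, chr19:12938379-12938408 for CALR, chr5:179698773-179698802 for CANX and chr22:49918549-49918578 for CRELD2. HYOU1 is on the minus strand and the other 5 genes are on the plus strand. The HSP90B1 and CANX sites fall in annotated exons, and the rest do not. The distal HYOU1 site holds an ERSE-II that overlaps a second element, the unfolded protein response element (UPRE, TGACGTGG), on the other strand. No window of SIL1, UGGT1 or MANF held any of these letters, which says only that they are not in these windows. In the MANF window 244 of the 250 bases before the start lie in annotated exons. The SIL1 start used, chr5:139198368, lies inside the deposited gene, which reaches 139293557 on the minus strand. The CANX starts used, chr5:179698427 to chr5:179698967, likewise lie inside the deposited gene, which begins at 179678628. Those of HSP90B1, CALR, SDF2L1, MANF and CRELD2 are inside as well, closer to the deposited end.

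Over all 35116 windows in the RefSeq table, 0.0769% held an ERSE, 0.0541% an ERSE-II, 0.131% either of them and 0.729% a UPRE. By gene, 0.161% of 27305 held an ERSE or ERSE-II in a window. The genes followed here were chosen on their function, and ER stress response elements are, as given above, found in promoters of chaperone genes. Nothing is therefore read from the matches in their windows beside these shares. A match of letters is a description and not evidence that a factor binds there. CANX has 4 windows, 3 of which hold the same ERSE, and the other 9 genes have 1 each.

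**Figure D1:**
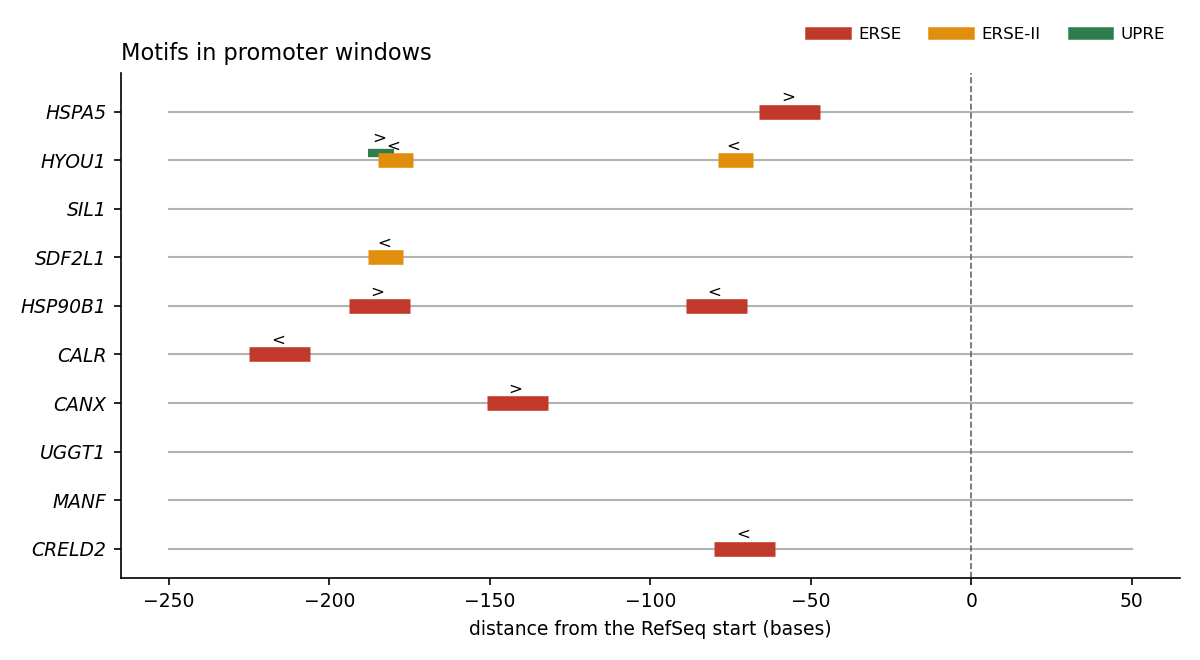
Promoter windows of the 10 genes, with the distance from the RefSeq start in bases on the horizontal axis and a dashed line at the start. Coloured bars are ERSE, ERSE-II and UPRE, and > or < above a bar shows an element on the strand of the gene or on the opposite strand. For CANX the window starting at 179698679 is drawn, and 7 of the 10 genes hold an ERSE or ERSE-II.

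Of the 10 genes, 7 were called higher in SPOCK1 libraries and none lower by edgeR's quasi-likelihood test (adjusted p under 0.05 over 15790 genes), and SIL1, CANX and UGGT1 were not called. None was lower at an unadjusted p under 0.05 or with DESeq2 either. Over all genes tested, 0.247% were called higher and 0.798% lower. Because the genes were chosen on this contrast, nothing is read from the count beside these shares. In 8 of the 10, CANX included, every SPOCK1 library lay above every control, as it did for 3.43% of all genes tested. The median log2 fold change of the 10 was 0.59, beside -0.004 over all genes tested, and the called genes lay between 1.41-fold and 1.75-fold. In RNA from a whole culture, more cells with a high level cannot be told apart from more RNA in each cell.

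**Figure D2:**
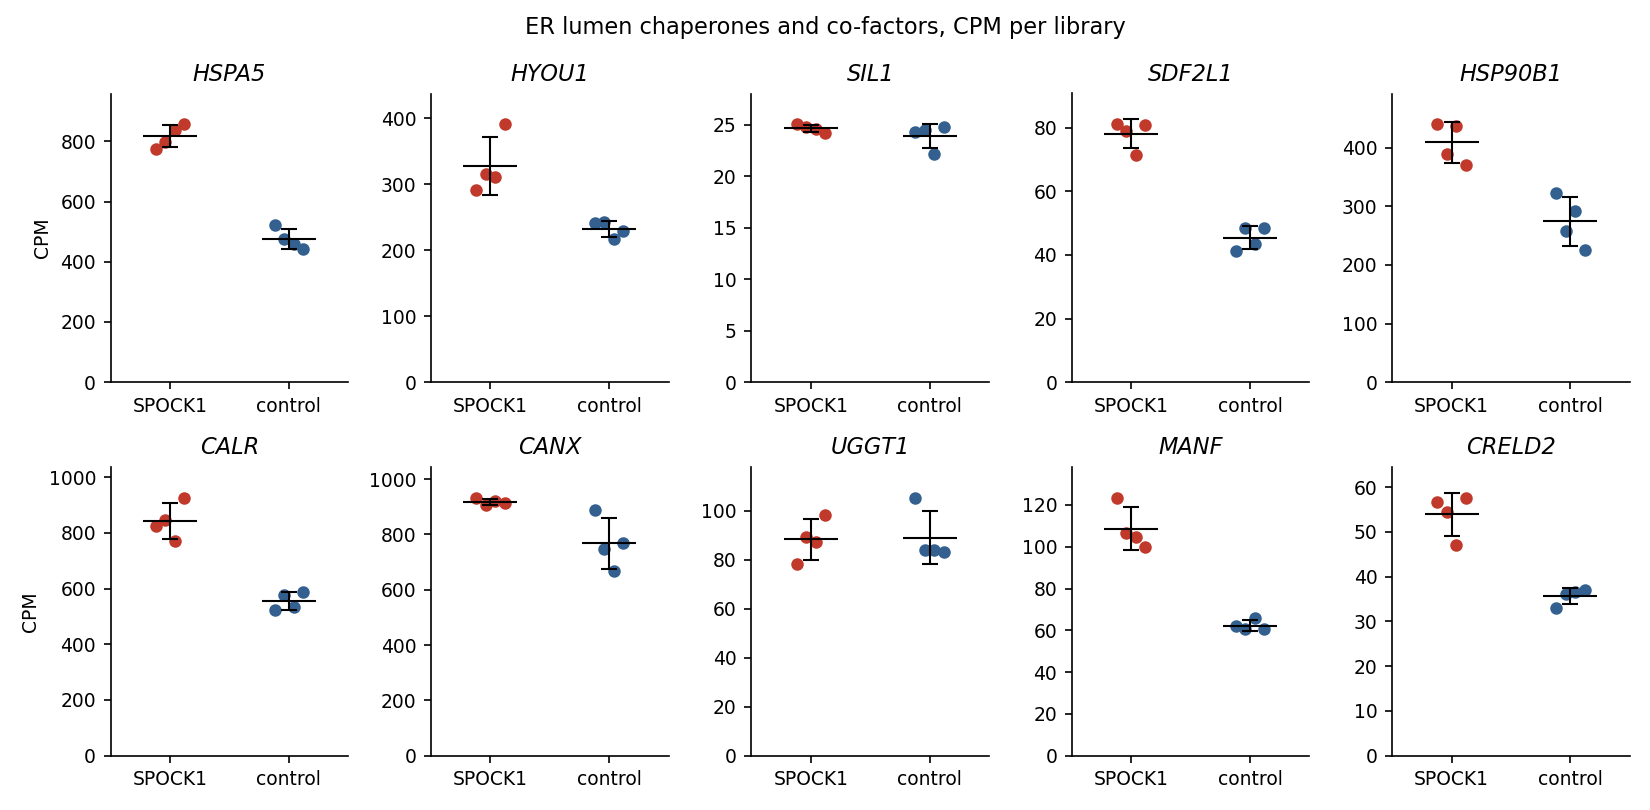
CPM of each gene by library, with SPOCK1 libraries at the left of each panel and control libraries at the right. Points are libraries 1 to 4 in order, and bars are means ± SD (n = 4). In 8 panels the SPOCK1 and control points do not overlap, and in SIL1 and UGGT1 they do.

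HSPA5 (ENSG00000044574, chr9:125234853-125241330, minus strand), the Hsp70 chaperone itself, had 776, 799, 837 and 856 CPM in SPOCK1 libraries 1 to 4, against 523, 477, 459 and 443 CPM in control libraries 1 to 4. The groups were far apart, with the lowest SPOCK1 library 1.48 times the highest control. The log2 fold change was 0.78 ± 0.08 (SE), or 1.72-fold. Gene coordinates here and for the other genes are the deposited ones, identical to an annotation of GRCh38. HSPA5 also took a larger share of the set, 21.4% to 23.2% of the counts of the 10 genes in SPOCK1 libraries and 17.7% to 19.0% in controls.

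The cofactors that reset or serve HSPA5 split. HYOU1 (GRP170, ENSG00000149428, chr11:119044189-119057202, minus strand), a large Hsp70 relative that drives nucleotide exchange on HSPA5, had 291, 316, 311 and 391 CPM in SPOCK1 libraries, against 241, 243, 217 and 229 CPM in controls. All 4 SPOCK1 libraries were higher, with library 4 well above the other three, and the log2 fold change was 0.49 ± 0.09 (SE). SIL1 (ENSG00000120725, chr5:138946720-139293557, minus strand), the other exchange factor, had 25.0, 24.8, 24.6 and 24.1 CPM in SPOCK1 libraries, against 24.2, 24.5, 22.1 and 24.7 CPM in controls. The SIL1 groups overlapped, with a log2 fold change of 0.04 ± 0.09 (SE). The long noncoding RNA gene SNHG4 overlaps SIL1 on the opposite strand with 146% of its mean count. The strand setting is not given in the sources used here, so reads in bases that both genes share cannot be told apart.

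SDF2L1 (ENSG00000128228, chr22:21642261-21644298, plus strand), a small lumenal protein that works with the J-domain protein DNAJB11 beside HSPA5, had 81.0, 78.9, 71.5 and 81.0 CPM in SPOCK1 libraries, against 41.3, 48.3, 43.4 and 48.5 CPM in controls. The lowest SPOCK1 library was 1.48 times the highest control, the same spacing as for HSPA5. Its log2 fold change was 0.78 ± 0.09 (SE), or 1.72-fold.

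HSP90B1 (GRP94, ENSG00000166598, chr12:103930107-103953645, plus strand), the Hsp90 of the ER, which folds a narrow set of clients that includes integrins and Toll-like receptors, had 440, 389, 437 and 371 CPM in SPOCK1 libraries, against 323, 257, 291 and 225 CPM in controls. The groups did not overlap, but both spread widely and in the same way, with libraries 1 and 3 above libraries 2 and 4. The log2 fold change was 0.58 ± 0.10 (SE), or 1.49-fold.

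The 3 genes of the lectin cycle split as well. CALR (ENSG00000179218, chr19:12938578-12944489, plus strand), the soluble lectin chaperone, had 823, 845, 770.5 and 926 CPM in SPOCK1 libraries, against 523, 577, 533 and 588 CPM in controls, without overlap and with a log2 fold change of 0.60 ± 0.08 (SE). CANX (ENSG00000127022, chr5:179678628-179730925, plus strand), its membrane-bound relative, had 932, 905, 921 and 913 CPM in SPOCK1 libraries, against 889, 749, 667 and 768 CPM in controls. Every SPOCK1 library was above every control, but only by 1.02 times between the closest pair, and its log2 fold change of 0.26 ± 0.08 (SE) was not called. UGGT1 (ENSG00000136731, chr2:128091200-128195677, plus strand), the glucosyltransferase that tags unfolded glycoproteins for another round, had 78.0, 89.3, 87.2 and 98.3 CPM in SPOCK1 libraries, against 105, 83.7, 83.8 and 83.1 CPM in controls. Control library 1 was the highest of the 8 UGGT1 values and SPOCK1 library 1 the lowest, and the log2 fold change was -0.01 ± 0.10 (SE).

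MANF and CRELD2 are small ER proteins, induced by ER stress, that can also be secreted. MANF (ENSG00000145050, chr3:51385047-51389397, plus strand), which binds HSPA5 and slows its release of nucleotide, had 123, 106, 105 and 100 CPM in SPOCK1 libraries, against 61.9, 60.5, 65.9 and 60.5 CPM in controls. MANF was the best separated of the 10, with the lowest SPOCK1 library 1.52 times the highest control, and its log2 fold change was 0.80 ± 0.08 (SE), or 1.75-fold. CRELD2 (ENSG00000184164, chr22:49918167-49927540, plus strand) had 56.6, 54.3, 47.1 and 57.6 CPM in SPOCK1 libraries, against 33.0, 36.0, 36.5 and 36.9 CPM in controls. The CRELD2 groups did not overlap, and its log2 fold change was 0.60 ± 0.09 (SE). The gene ALG12 overlaps CRELD2 on the opposite strand with 26.6% of its mean count and was itself not called (log2 fold change 0.09 ± 0.13 SE, adjusted p = 0.804, edgeR). As for SIL1 and SNHG4, reads in bases that both genes share cannot be told apart.

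**Figure D3:**
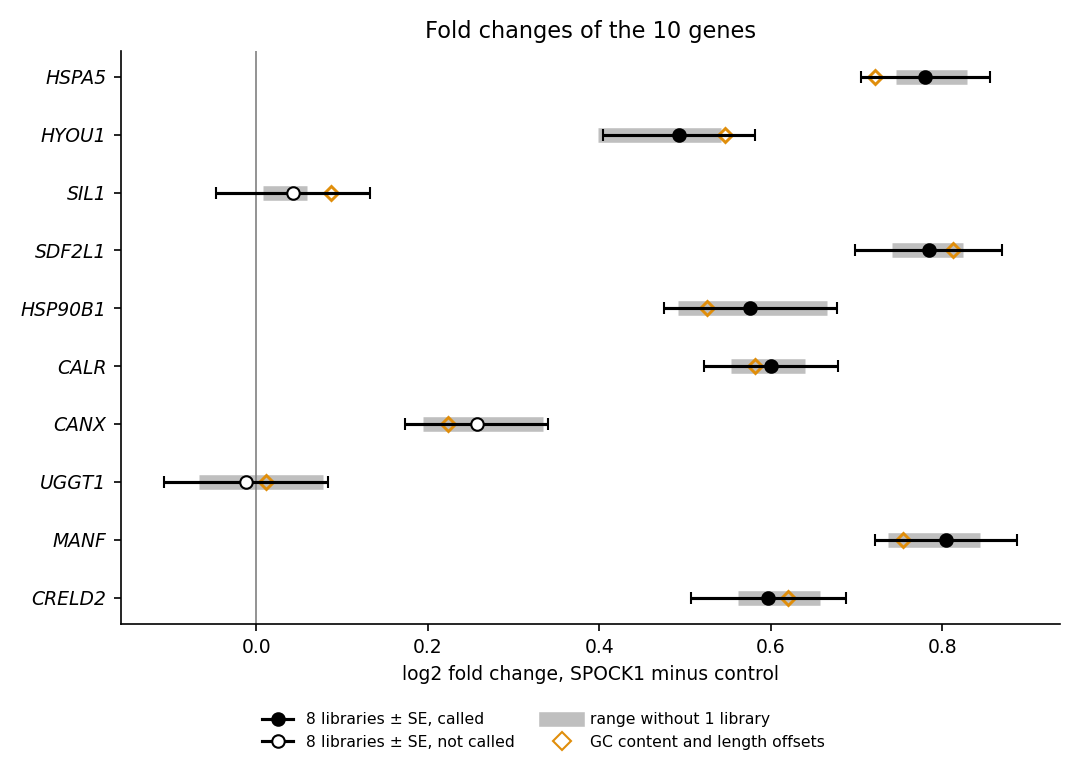
Log2 fold changes, SPOCK1 minus control, of the 10 genes ordered by role. Circles with bars are the values ± SE from all 8 libraries, filled where called, grey bands are the range when 1 library is left out, and diamonds are the values with offsets for GC content and length. The 7 filled circles lie at 0.49 or above, and SIL1 and UGGT1 sit at the zero line.

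Among the 6895 genes tested with a mean of at least 20 CPM, 15 had a log2 fold change of at least that of HYOU1, the lowest of the 7. These 15 include the 7 genes by construction, because the cut is the value of HYOU1 itself, so nothing is read from the count. The 20 CPM floor leaves out DDIT3 and DNAJC3, described below, with log2 fold changes of 0.82 and 0.64. Together the 10 genes took 0.361% ± 0.009 of all counts in SPOCK1 libraries and 0.260% ± 0.021 in controls (SD, n = 4 each).

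Per length the 10 genes spanned more than an order of magnitude, and their order shifted between the groups. The length used is all annotated exonic bases of a gene, which can exceed the transcripts present. The order between genes, and which of them cross, therefore depend on the annotation. In CPM per kilobase of exon, CALR was the highest in both groups, at 310.0 ± 23.8 in SPOCK1 libraries and 204.5 ± 11.8 in controls (SD, n = 4 each). Next in SPOCK1 libraries were HSPA5 at 209.1 ± 9.27 and CANX at 147.2 ± 1.86, without overlap, whereas in controls HSPA5 at 121.7 ± 8.79 and CANX at 123.2 ± 14.7 overlapped. MANF was above HYOU1 in SPOCK1 libraries (45.6 ± 4.28 and 42.5 ± 5.68, overlapping) and below it in controls (26.1 ± 1.06 and 30.2 ± 1.55, not overlapping). CRELD2 was above UGGT1 in SPOCK1 libraries (10.4 ± 0.917 and 7.77 ± 0.733) and below it in controls (6.90 ± 0.346 and 7.84 ± 0.952), and neither pair of values overlapped. HSP90B1 and SDF2L1 followed CANX or HSPA5 in both groups, and SIL1 was last, at 6.14 ± 0.0915 in SPOCK1 libraries and 5.96 ± 0.302 in controls.

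**Figure D4:**
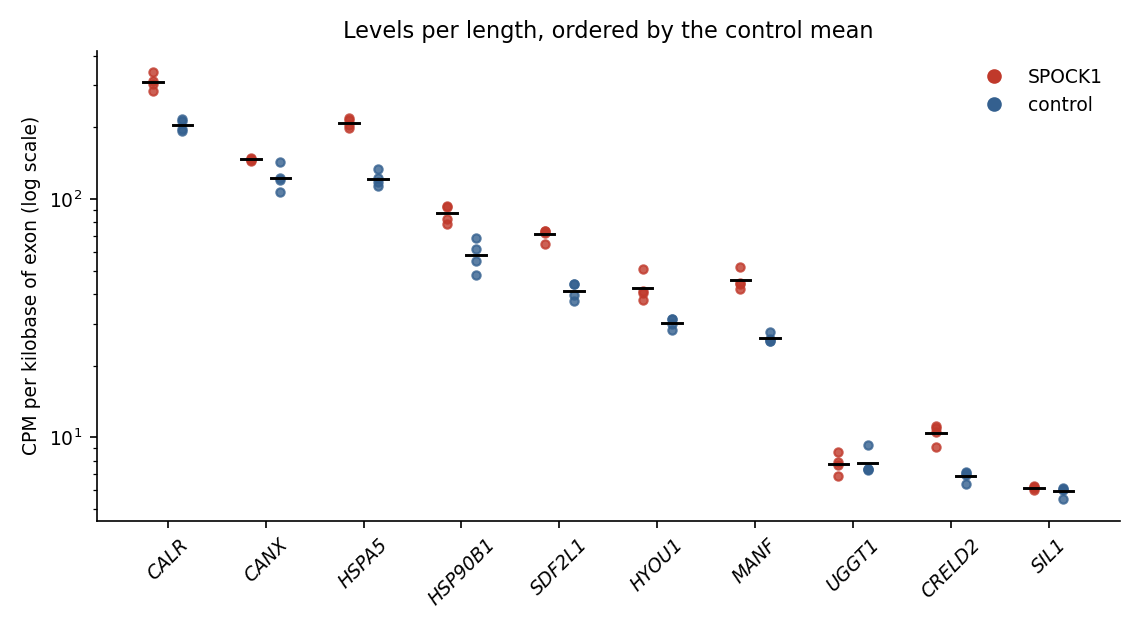
Levels per length of the 10 genes, in CPM per kilobase of exon on a log axis, ordered by the control mean. Points are libraries, SPOCK1 at the left and control at the right of each gene, and black lines are means (n = 4). HSPA5 lies level with CANX in controls and above it in SPOCK1 libraries, on lengths that count all annotated exonic bases.

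Within a group the 10 genes did not vary as a block. Over the 8 libraries the median Pearson r of log2 CPM over the 45 pairs of genes was 0.745, which includes the difference between the groups. After each group's mean was subtracted the median was -0.008, with 10 pairs above 0.5 and 7 below -0.5. HSPA5 and UGGT1 had the highest r, 0.889, and HSP90B1 and CALR the lowest, -0.847. All pairs share the same 8 libraries, and these r values are a description.

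The opposed pair differ in base composition, and the part of this in their opposition was not tested. The longest transcript of HSP90B1 has 41.2% GC, and those of CALR, SDF2L1 and CRELD2 have 53.9%, 65.5% and 54.5%. With group means subtracted, their r with HSP90B1 was -0.847, -0.802 and -0.559. SIL1, HYOU1 and MANF, at 58.5%, 55.2% and 51.6% GC, had r with HSP90B1 of -0.276, -0.353 and 0.484. With genes put in 5 classes by GC content, the mean log2 deviation of the highest class minus that of the lowest was -0.27, 0.03, -0.19 and 0.26 in SPOCK1 libraries 1 to 4, against -0.13, 0.21, -0.17 and 0.26 in control libraries 1 to 4. In both groups this value was lower in libraries 1 and 3 than in libraries 2 and 4. In both groups, too, HSP90B1 was higher and CALR lower in libraries 1 and 3 than in libraries 2 and 4. With per-library offsets for GC content and length, chosen for this measure after seeing the data, r of HSP90B1 with CALR was -0.179 and r of CALR with SDF2L1 was -0.34, against 0.845 without offsets, while r of HSPA5 with UGGT1 was 0.774. Other pairs were farther from 0 with the offsets, where r of CALR with SIL1 was -0.786, against 0.2 without, and r of CALR with UGGT1 was 0.759, against 0.002. Of the 45 pairs, 14 changed sign, and with the offsets 12 were above 0.5 and 5 below -0.5, around a median of -0.007. The median r of HSPA5 with the other 9 genes was 0.371 with the offsets and -0.008 without, so which genes vary together within a group depends on this correction. The differences between the groups were about as large with the offsets, at 0.53 ± 0.07 for HSP90B1, 0.58 ± 0.05 for CALR and 0.72 ± 0.07 for HSPA5 (log2 fold change ± SE).

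Libraries 1 and 3 alone and libraries 2 and 4 alone gave like sizes. The 7 called genes had log2 fold changes of 0.40 to 0.85 in libraries 1 and 3 and of 0.58 to 0.85 in libraries 2 and 4. None of them was called in libraries 1 and 3 (lowest adjusted p = 0.0578, edgeR), where 8 genes in all were, and all 7 were called in libraries 2 and 4, where 140 genes were.

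The genes whose pattern over the 8 libraries was most like the mean standardized pattern of the 10, among tested genes with a mean of at least 10 CPM, were PDIA3 (r = 0.989), PDIA4 (0.98), EMP1 (0.974), RBM28 (0.972) and SPOCK1 (0.965). This r includes the difference between the groups, which was known when the 10 were chosen, and SPOCK1 itself is on the list. With group means subtracted the genes most alike were ITGA7 (0.922), ARNT2 (0.916), PELI3 (0.915), IVD (0.911) and ZSCAN5A (0.909), a list that shares no gene with the first. The second list was made without the offsets for GC content and length, on which r within a group depends. Both lists take the highest of many r values over 8 libraries, and such a choice raises r. Within a group the median r over pairs of the 10 was -0.008, so their mean is not a shared pattern. Nothing is read from the second list.

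Other genes of the folding system were counted on lists put together with earlier results of these data known. Nothing is therefore read from their counts beside the shares over all genes tested, 0.247% called higher and 0.798% lower. Of 21 tested protein disulfide isomerases and oxidases (25 listed), which form and rearrange disulfide bonds, 3 rose and none fell, with a median log2 fold change of 0.15. PDIA4 had 329, 339, 335 and 370 CPM in SPOCK1 libraries, against 214, 219, 199 and 219 CPM in controls, a rise of 1.61-fold (adjusted p = 6.34e-05, edgeR). PDIA6 rose 1.35-fold (adjusted p = 0.00333), and PDIA3, the isomerase that works with CALR and CANX, rose 1.28-fold (adjusted p = 0.0192). The call of PDIA3 was lost without SPOCK1 library 2 or 3 or control library 2, 3 or 4, with adjusted p between 0.0566 and 0.119.

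All 7 ER J-domain proteins, which start the HSPA5 cycle, were tested, and 2 rose and none fell, with a median of 0.16. DNAJB11, the partner of SDF2L1, had 58.1, 61.7, 61.7 and 57.7 CPM in SPOCK1 libraries, against 42.3, 44.5, 42.6 and 39.1 CPM in controls, a rise of 1.42-fold (adjusted p = 0.00367, edgeR). DNAJC3, which also inhibits the kinase PERK, rose 1.56-fold (adjusted p = 0.0465), a call lost without SPOCK1 library 1 or 3 or control library 1, 2 or 4, with adjusted p between 0.103 and 0.155. DNAJC1, at 0.32 ± 0.10 (log2 fold change ± SE), was not called (adjusted p = 0.168).

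Among 32 tested of 34 other ER folding factors, PPIB, a prolyl isomerase of the lumen, rose 1.36-fold (adjusted p = 0.012, edgeR), none fell, and the median was 0.08. Without control library 2 the adjusted p of PPIB was 0.0515. NUCB1, at -0.23 ± 0.09, and SELENOF, at 0.28 ± 0.12 (log2 fold change ± SE), were next by p and were not called. At an unadjusted p under 0.05, 1 gene of this list, 1 UPR regulator and none of the disulfide and J-domain lists were lower, and DESeq2 called 1 UPR regulator lower. The share of all tested genes at that unadjusted threshold is not given here, so nothing is read from these counts.

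Of 21 tested regulators of the unfolded protein response (24 listed), DDIT3 (CHOP), a transcription factor downstream of PERK, rose 1.77-fold (adjusted p = 0.0112, edgeR) and none fell, with a median of -0.004. DDIT3 had 15.4, 12.3, 13.3 and 10.4 CPM in SPOCK1 libraries, against 5.80, 6.43, 8.65 and 8.24 CPM in controls. Its call was lost without control library 1 (adjusted p = 0.0522) or 2 (0.0505) and in libraries 2 and 4 alone (0.0612). XBP1, at 0.22 ± 0.08 (log2 fold change ± SE, adjusted p = 0.206), did not overlap between the groups and was not called, nor was CREB3L4, at -0.42 ± 0.12 (adjusted p = 0.131). CREB3L4 was called lower with DESeq2 and with the offsets (adjusted p = 0.0472 in each).

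None of the 26 tested chaperones of the cytosol and mitochondria (27 listed) was called by edgeR, DESeq2 or limma-voom. At an unadjusted p under 0.05, 4 were higher and 1 lower, and the median was 0.07. Without the share of all tested genes at that threshold, which is not given here, nothing is read from these counts. Of the 26, 21 had a log2 fold change above 0, beside 49.2% of all genes tested. HSPA8, the constitutive cytosolic Hsp70, had 4274 ± 356 CPM in SPOCK1 libraries and 3600 ± 109.5 CPM in controls (SD, n = 4 each). Its groups did not overlap, and it was not called (adjusted p = 0.158, edgeR). BAG1, at 0.27 ± 0.10 (log2 fold change ± SE, adjusted p = 0.236, edgeR), did not overlap either. HSPA9, at 0.18 ± 0.07 (adjusted p = 0.307), did. In 3.43% of all genes tested, every SPOCK1 library lay above every control.

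**Figure D5:**
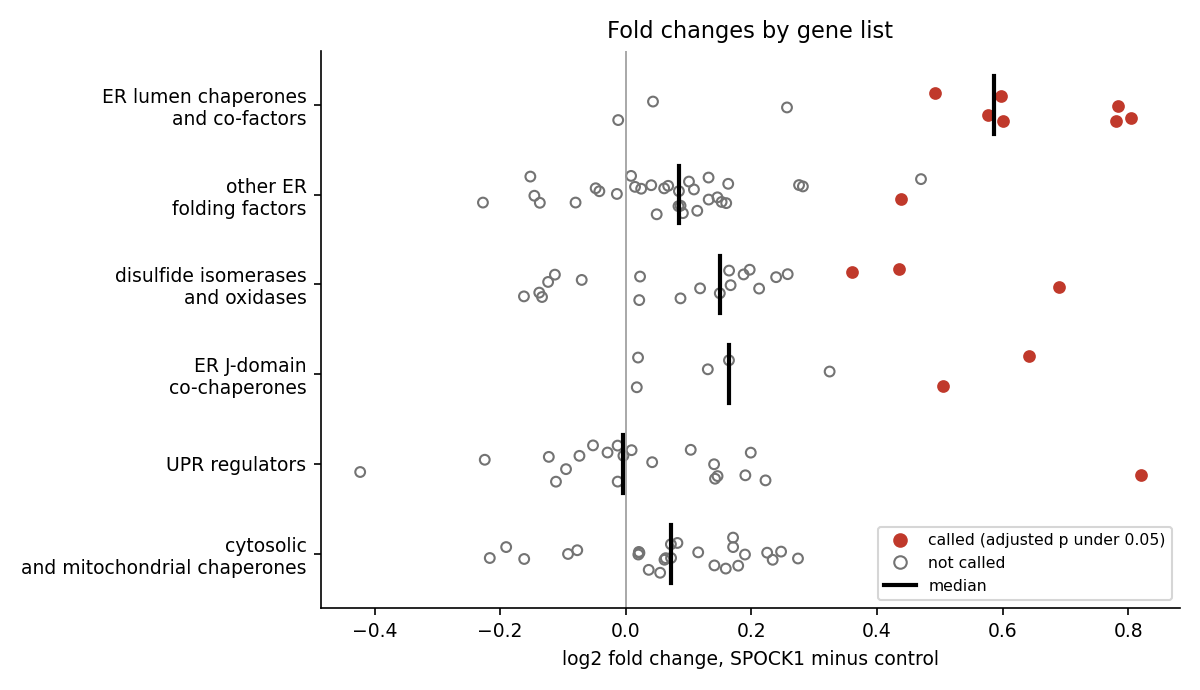
Log2 fold changes, SPOCK1 minus control, of the tested genes of each list, with filled circles for called genes, open circles for the others and a black line at the median. UPR stands for the unfolded protein response. The medians are 0.59 for the 10 ER lumen genes and 0.15, 0.16, 0.08, -0.004 and 0.07 for the disulfide, J-domain, other folding, UPR and cytosolic and mitochondrial lists.

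Beyond the 10 genes, 23 tested genes had an ERSE or ERSE-II in a window. Of these, 2 rose and none fell, beside 0.247% called higher and 0.798% lower over all genes tested. Their median log2 fold change was 0.12, with 15 above 0, beside 49.2% of all genes tested. The set is small, and nothing is read from these counts. The 2 were PDIA6, with an ERSE, and HERPUD1, a component of ER-associated degradation with an ERSE-II, which was at 0.54 ± 0.08 (log2 fold change ± SE; adjusted p = 0.0011, edgeR) and is named after its values were seen. At an unadjusted p under 0.05, 5 were higher and 2 lower, counts given without the share of all tested genes at that threshold and not read further. Genes that start within 5000 bases of one of the 10 were not called in any of the 4 tested cases. FARSA, near CALR, was at 0.14 ± 0.08 (log2 fold change ± SE; adjusted p = 0.471, edgeR). TTC41P, near HSP90B1, was at 0.67 ± 0.40, with means of 0.848 CPM in SPOCK1 libraries and 0.535 CPM in controls. MATR3, near SIL1, was at -0.245 ± 0.498, with means of 0.394 and 0.474 CPM. Another entry named MATR3 overlaps SIL1 on the opposite strand, with at most 4 counts in any library. How reads were shared between both entries is not known here, so these values may not stand for the gene. At such low levels and wide errors, the lack of a call says little about TTC41P and MATR3.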

How the data were processed

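RNA was sequenced from 4 SPOCK1 and 4 control libraries of SW480. The deposited table gives raw read counts for each gene. The submitters' processing notes name CASAVA, HISAT2 2.0.5 and featureCounts 1.5.0-p3. For the build, strand setting and multiply mapped reads, the entry is: not given in the sources used here. Start, end and strand of all 58735 genes were identical to GENCODE 29 (GRCh38).

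The 10 genes, the wider lists and the rule for named genes were chosen with earlier results of these data known. That rule took the 10, the 3 genes of smallest p per wider list, tested genes starting within 5000 bases, the 5 most alike over the libraries and the 5 after subtracting group means, and SPOCK1.

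Genes passed filterByExpr (minimum count 10, minimum total 15). CPM used TMM-scaled sizes. Groups were compared in R 4.3.3 with edgeR 4.0.16 (quasi-likelihood F test, no covariates, Benjamini-Hochberg over 15790 genes). Log2 CPM for correlations used a prior count of 2. Scripts were tested on simulated data. Alternatives were DESeq2 1.42.0, voom with limma 3.58.1, upper-quartile and RLE factors, other low-count filters, the replicate number as a block, offsets for GC content and length (splines of 5 degrees of freedom, which also remove biology that follows them), libraries 1 and 3 or 2 and 4 alone, and each library left out. Promoter windows matched all 10 genes by symbol.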

Additional observations from a re-analysis of the deposited data

Results flagged for a closer look

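UGGT1 in control library 1 stood far from the other control libraries, at 105.13 CPM against 83.8 CPM in the nearest, a gap of 0.968 of the group's range. Dixon's 95% critical value for 4 samples was used, and chance passes it in about 1 of 20 groups, the number examined here (10 genes in each of 2 groups).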

How the results depend on the processing

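All 7 called ER lumen genes stayed called in 17 of 18 alternatives. The exception was libraries 1 and 3 alone, with 0 of the 10 called higher. Libraries 2 and 4 alone, as many, kept all 7, and the cause was not tested. Over all genes, 39 were higher and 126 lower. DESeq2 gave 113 and 285, no filter beyond 1 count 120 and 279, the offsets 221 and 327, and libraries 1 and 3 gave 1 and 7, also with the cause not tested. Leaving out 1 library gave 24 to 66 higher and 63 to 171 lower.

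In the wider lists, libraries 1 and 3 alone gave 0 higher in the other folding, disulfide, J-domain and UPR lists, and libraries 2 and 4 alone gave 0 in the UPR list. The offsets gave 2 higher in the other folding list and 2 in the UPR list, and both DESeq2 and the offsets gave 1 lower in the UPR list. Without 1 library, other folding factors called higher numbered 0 to 1, J-domain proteins 1 to 2 and UPR regulators 0 to 1.

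The log2 fold change of SIL1 was -0.012 in libraries 2 and 4 alone. That of UGGT1 was 0.011 with the offsets, 0.167 in libraries 2 and 4, and -0.067 to 0.078 without 1 library (0.04 without SPOCK1 library 1 and 0.078 without control library 1). Within groups, r of CALR with SDF2L1 was -0.34 with the offsets, chosen for this measure after seeing the data, against 0.845 without, and r of CALR with SIL1 was -0.786, against 0.2.

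Same-numbered libraries did not deviate together (r of -0.159, 0.0902, 0.113 and 0.176 over 13185 genes), and the best partners of SPOCK1 libraries 1 to 4 were control libraries 3, 4, 1 and 2. With the replicate block, 31 genes were higher and 84 lower, and the 7 ER lumen genes stayed called. The lowest count of any of the 10 genes in a library was 820, for SIL1 in control library 3.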
